A study of Mus musculus with 9 samples.

Results

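The 8 genes described here encode gap junction proteins and ion channels of the heart: the connexin genes Gja1, Gja5 and Gjc1, the pacemaker channel gene Hcn4, the potassium channel genes Kcnj3, Kcnh2 and Kcnq1, and the calcium channel gene Cacna1c. They were chosen by name, and each was read from the array probe that is annotated to that gene alone. All 8 had such a probe, and they are 8 of the 19933 genes that could be compared. RNA from mouse heart cells was measured on Affymetrix Gene 1.0 ST arrays in a search for fibroblast factors that act on the growth of myocytes. There were 3 groups of 3 biological replicates: embryonic cardiomyocytes that carry an Nkx-YFP reporter and were positive for it, cardiac fibroblasts of embryos and cardiac fibroblasts of adult mice. No source used here gives the embryonic stage, adult age, strain, sex or time in culture, or says how the fibroblasts were selected. Values are RMA values, a background-corrected and normalized array signal on the log2 scale, so that a difference of 1 is a doubling. They do not rank genes against each other, since each probe has its own brightness.

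Connexins assemble into channels that join the cytoplasm of neighbouring cells and carry the cardiac impulse from cell to cell. Ion channels shape the action potential: HCN channels help to drive pacemaking, L-type calcium channels trigger contraction, and the potassium channels studied here slow the pacemaker or return the membrane to rest. Gja1 encodes the main connexin of working ventricular muscle, which fibroblasts also make. The product of Gja5 belongs to the atria, the fast conduction system and arterial endothelium, and that of Gjc1 to early myocardium and the nodes.

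The arrays were compared with their labels first. The mean RMA value over 10 cardiomyocyte markers, troponins and myosins among them, was 12.50 to 12.61 in the cardiomyocyte arrays, 11.04 to 11.67 in the embryonic fibroblast arrays and 7.84 to 8.27 in the adult fibroblast arrays. The embryonic fibroblast preparation held much RNA of cardiomyocyte genes. Tnnt2, which encodes cardiac troponin T, stood at 13.43, 13.26 and 13.44 in it, against 13.88, 13.77 and 13.81 in cardiomyocytes and 9.40, 10.62 and 9.47 in adult fibroblasts. Over 8 fibroblast markers the mean was 8.88 to 9.22 in cardiomyocytes, 10.41 to 10.56 in embryonic fibroblasts and 10.61 to 10.81 in adult fibroblasts. Not all 8 followed this order. Col1a1, Col1a2, Postn and Fn1 were highest in embryonic fibroblasts, and Fn1 was lowest in adult fibroblasts (group means of 11.11, 12.58 and 10.33). Over 6 endothelial markers the mean was 8.72 to 9.32, 10.18 to 10.61 and 9.23 to 10.36 in the same order of groups. Arrays of adult fibroblasts were less alike than those of the other groups, with Pearson correlations over all probes from 0.970 to 0.993, and replicate 3 had the lowest weight of the 9 arrays when limma estimated their precision (0.215). The Y-linked gene Eif2s3y was at 8.43 to 9.33 on the embryonic arrays and 4.67 to 5.10 on the adult arrays. Xist, also sex-linked, was at 10.49 to 11.16 on the embryonic and 11.54 to 11.92 on the adult arrays. Sex, age and the level of cardiomyocyte marker RNA therefore cannot be told apart between the fibroblast groups. Between adult fibroblasts and cardiomyocytes, cell type, sex and age cannot be told apart. In bulk RNA, fewer cells of a type and less RNA per cell cannot be told apart either.

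Cardiomyocytes had the highest mean of the 3 groups in 6 of the 8 genes, all but Gja1 and Gjc1. In embryonic fibroblasts 6 of the 8 genes fell relative to cardiomyocytes and 0 rose, where 11.1% of all genes tested fell and 10.3% rose. In adult fibroblasts 5 fell and 0 rose, where 18.2% of all genes fell and 17.4% rose. Between the fibroblast groups 2 of the 8, Gja5 and Cacna1c, were higher in embryonic cells and 1, Gja1, was lower, where 11.2% of all genes were higher and 8.34% lower. The median difference over the 8 genes was -0.46 for embryonic fibroblasts minus cardiomyocytes, -0.59 for adult fibroblasts minus cardiomyocytes and 0.18 for embryonic minus adult fibroblasts, while the medians of all genes were -0.0003, 0.06 and -0.04. Each group enters 2 of the 3 comparisons, so these are not independent of each other. Gjc1 and Hcn4 passed in none of them. A call means an adjusted p under 0.05 by limma, adjusted over all genes.

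**Figure D1:**
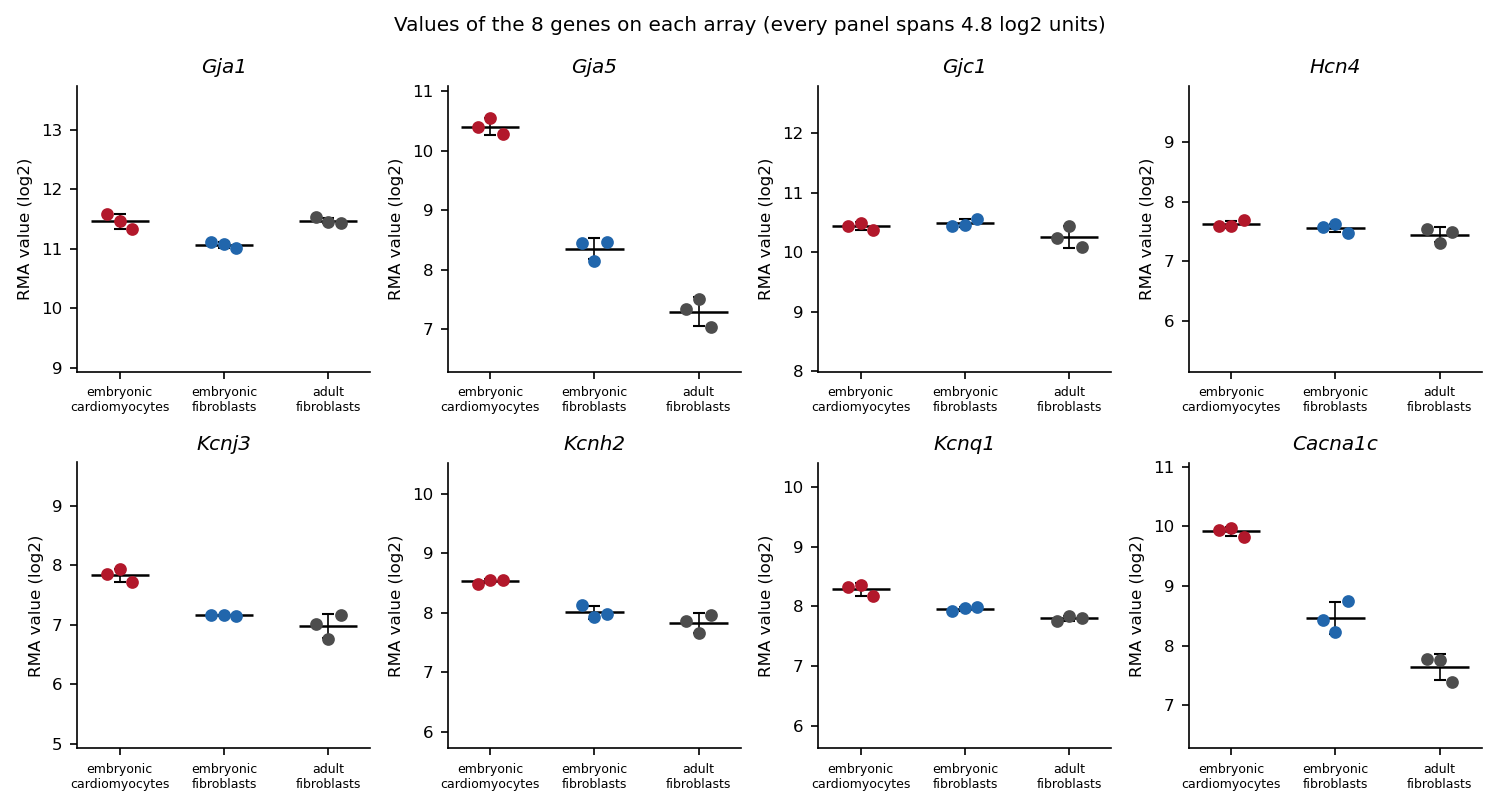
RMA values (log2) of the 8 genes on the 9 arrays, 1 point an array, with the group mean as a horizontal line and the SD as a bar; each vertical axis spans the same number of log2 units. Gja5 and Cacna1c step down from cardiomyocytes (means 10.41 and 9.92) through embryonic fibroblasts (8.36 and 8.46) to adult fibroblasts (7.30 and 7.64), while Gjc1 and Hcn4 stay nearly level.

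The 3 connexin genes behaved differently from each other. Gja5 stood at 10.39, 10.55 and 10.27 in cardiomyocytes, at 8.46, 8.15 and 8.46 in embryonic fibroblasts and at 7.35, 7.52 and 7.03 in adult fibroblasts. No array of one group reached into the range of another, and the order cardiomyocytes, embryonic fibroblasts, adult fibroblasts held with gaps well above the spread within groups. Gja5 was 4.14-fold lower in embryonic fibroblasts than in cardiomyocytes (-2.05 ± 0.14, standard error, with n = 3 in each group, adjusted p = 4.8e-05) and 8.63-fold lower in adult fibroblasts (-3.11 ± 0.14, adjusted p = 4.13e-07). It was 2.08-fold higher in embryonic than in adult fibroblasts (1.06 ± 0.14, adjusted p = 0.000695).

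Gja1 followed another order. Its values were 11.58, 11.47 and 11.33 in cardiomyocytes, 11.11, 11.09 and 11.01 in embryonic fibroblasts and 11.53, 11.46 and 11.44 in adult fibroblasts. Embryonic fibroblasts were the lowest group, below every array of the other two, and the adult arrays lay within the range of the cardiomyocytes. Relative to cardiomyocytes Gja1 was 1.31-fold lower in embryonic fibroblasts (-0.39 ± 0.08, adjusted p = 0.00811). It was also 1.33-fold lower in embryonic than in adult fibroblasts (-0.41 ± 0.08, adjusted p = 0.00691). Adult fibroblasts minus cardiomyocytes gave 0.02 ± 0.08 (adjusted p = 0.909) with a 95% interval from -0.17 to 0.20. The sign of this difference turned when cardiomyocyte replicate 3 or adult replicate 1 was left out. On the same adult arrays the 10 cardiomyocyte markers differed from cardiomyocytes by -5.52 to -3.96.

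Gjc1 showed no called difference. It was at 10.45, 10.50 and 10.38 in cardiomyocytes, 10.44, 10.46 and 10.56 in embryonic fibroblasts and 10.24, 10.45 and 10.08 in adult fibroblasts. All 3 groups overlapped. The difference between embryonic fibroblasts and cardiomyocytes was 0.05 (95% interval -0.18 to 0.27, adjusted p = 0.83). Adult fibroblasts were lower by 0.18 than cardiomyocytes (difference -0.18, interval -0.41 to 0.04, adjusted p = 0.191) and embryonic exceeded adult fibroblasts by 0.23 (interval 0.005 to 0.45, adjusted p = 0.156). The spread of Gjc1 was widest in adult fibroblasts (SD 0.18, against 0.06 and 0.07). Without adult replicate 2 both of these differences passed the test (-0.28, adjusted p = 0.0443, and 0.32, adjusted p = 0.0419).

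The DNA before the start sites of Gja5 and Gja1 is shown because these connexin genes had unlike patterns, and that of Hcn4 because it did not pass in any comparison. The windows are the 250 bases before the start on the gene's own strand, from the RefSeq promoter table for GRCm38.p6, which matched 6 of the 8 genes (not Gjc1 and Kcnq1). They lie at chr3:97032152-97032401 (+) for Gja5, chr10:56377050-56377299 (+) for Gja1 and chr9:58822699-58822948 (+) for Hcn4. Capitals mark matches, searched on both strands, to short motifs of 4 kinds. The core bound by NK2 homeodomain factors such as Nkx2-5 was written AAGTG in the search. Members of the T-box family such as Tbx5 bind a core that was written GGTGT for this purpose. For the zinc finger proteins of the GATA family, which are active in heart muscle, the letters were AGATAA here. The last motif, that of the AP-1 complex of Fos and Jun proteins, was searched as TGANTCA with N for any base. No 2 matches overlapped in these windows.
Gja5: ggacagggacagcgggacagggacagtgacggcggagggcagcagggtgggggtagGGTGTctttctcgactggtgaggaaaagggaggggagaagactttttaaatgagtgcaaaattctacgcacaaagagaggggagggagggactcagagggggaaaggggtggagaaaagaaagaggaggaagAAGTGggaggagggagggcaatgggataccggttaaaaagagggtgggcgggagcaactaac
Gja1: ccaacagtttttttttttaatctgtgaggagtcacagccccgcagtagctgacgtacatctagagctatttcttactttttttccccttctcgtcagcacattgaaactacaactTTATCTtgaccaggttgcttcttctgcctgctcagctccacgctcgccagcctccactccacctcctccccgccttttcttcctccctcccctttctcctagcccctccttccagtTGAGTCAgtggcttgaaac
Hcn4: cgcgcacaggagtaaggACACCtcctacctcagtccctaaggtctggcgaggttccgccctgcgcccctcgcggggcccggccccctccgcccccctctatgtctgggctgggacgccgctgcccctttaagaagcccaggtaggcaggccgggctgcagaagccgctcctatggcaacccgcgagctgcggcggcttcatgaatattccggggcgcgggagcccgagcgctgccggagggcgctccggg
In Gja5 the T-box core lies at -194 to -190, counted from the start site, and the NK2 core at -62 to -58, both on the gene's strand. In Gja1 a GATA core lies on the opposite strand at -135 to -130 and an AP-1 motif at -19 to -13, and Hcn4 holds a T-box core on the opposite strand at -233 to -229. A T-box core was found for 5 of the 6 matched genes, namely Gja5, Hcn4, Kcnj3, Kcnh2 and, in 2 of its 3 windows, Cacna1c, which is 6 of their 8 windows, while 36.2% of all 32851 windows of this length hold one. The NK2 core was in 1 of the 8 windows (40.7% of all), the GATA core in 1 (9.99% of all) and the AP-1 motif in 1 (6.75% of all). A match of letters is a description and not evidence of binding.

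Cacna1c, the pore subunit of the L-type calcium channel, was the other gene with a large gradient. It read 9.95, 9.98 and 9.83 in cardiomyocytes, 8.42, 8.22 and 8.74 in embryonic fibroblasts and 7.77, 7.76 and 7.40 in adult fibroblasts. The 3 groups did not overlap. It was 2.74-fold lower in embryonic fibroblasts than in cardiomyocytes (-1.46 ± 0.15, adjusted p = 0.00024) and 4.83-fold lower in adult fibroblasts (-2.27 ± 0.15, adjusted p = 2.72e-06). Embryonic fibroblasts exceeded adult ones 1.76-fold (0.82 ± 0.15, adjusted p = 0.00366).

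The decreases of the potassium channel genes were smaller in RMA value. Their means in cardiomyocytes were 7.83 (Kcnj3), 8.53 (Kcnh2) and 8.29 (Kcnq1), against 10.41 for Gja5 and 9.92 for Cacna1c. RMA values compress differences of dim genes, and how far this limited these decreases was not tested. Kcnj3 encodes a subunit of the G protein-gated channel through which vagal signals slow the heart. Its values were 7.85, 7.93 and 7.72 in cardiomyocytes, 7.16, 7.16 and 7.14 in embryonic fibroblasts and 7.02, 6.76 and 7.16 in adult fibroblasts. Both fibroblast groups lay below all cardiomyocyte arrays and overlapped each other. Kcnj3 was 1.6-fold lower in embryonic fibroblasts (-0.68 ± 0.11, adjusted p = 0.00204) and 1.8-fold lower in adult fibroblasts (-0.85 ± 0.11, adjusted p = 0.000185), and the fibroblast groups differed by 0.17 (95% interval -0.07 to 0.42, adjusted p = 0.314). Embryonic replicates 1 and 2 and adult replicate 3 carry the identical value 7.164. Such repeats were present in 46.4% of all genes, and here they make the SD of the embryonic fibroblasts small (0.013).

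Kcnh2 and Kcnq1 encode the pores of the rapid and the slow delayed rectifier, which end the action potential. Kcnh2 stood at 8.49, 8.56 and 8.56 in cardiomyocytes, 8.13, 7.93 and 7.98 in embryonic fibroblasts and 7.87, 7.66 and 7.97 in adult fibroblasts. It was 1.43-fold lower in embryonic fibroblasts (-0.52 ± 0.10, adjusted p = 0.00448) and 1.63-fold lower in adult fibroblasts (-0.70 ± 0.10, adjusted p = 0.000339). Kcnq1 stood at 8.33, 8.37 and 8.17 in cardiomyocytes, 7.92, 7.98 and 7.99 in embryonic fibroblasts and 7.76, 7.84 and 7.80 in adult fibroblasts. It was 1.26-fold lower in embryonic fibroblasts (-0.33 ± 0.08, adjusted p = 0.0133) and 1.4-fold lower in adult fibroblasts (-0.49 ± 0.08, adjusted p = 0.000731). For both genes cardiomyocytes formed the top group without overlap. The fibroblast groups overlapped in Kcnh2 (0.18, interval -0.04 to 0.40, adjusted p = 0.248) and lay apart in Kcnq1 without passing the test (0.16, interval -0.01 to 0.33, adjusted p = 0.194). The Kcnq1 call in embryonic fibroblasts was lost without cardiomyocyte replicate 2 (-0.29, adjusted p = 0.0575) and without embryonic fibroblast replicate 1 (-0.31, adjusted p = 0.0543).

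Hcn4, the main pacemaker channel of the sinus node, was nearly level. It read 7.59, 7.60 and 7.70 in cardiomyocytes, 7.58, 7.63 and 7.48 in embryonic fibroblasts and 7.55, 7.31 and 7.49 in adult fibroblasts. Embryonic fibroblasts overlapped both other groups, and the adult arrays lay below the cardiomyocyte arrays. The differences from cardiomyocytes were -0.07 (95% interval -0.26 to 0.13, adjusted p = 0.692) in embryonic and -0.18 (interval -0.37 to 0.01, adjusted p = 0.136) in adult fibroblasts, and embryonic minus adult fibroblasts gave 0.12 (interval -0.08 to 0.31, adjusted p = 0.402). Whether this probe rose above background in any group cannot be read from RMA values, and 30% of all probes had a mean below 6.91.

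**Figure D2:**
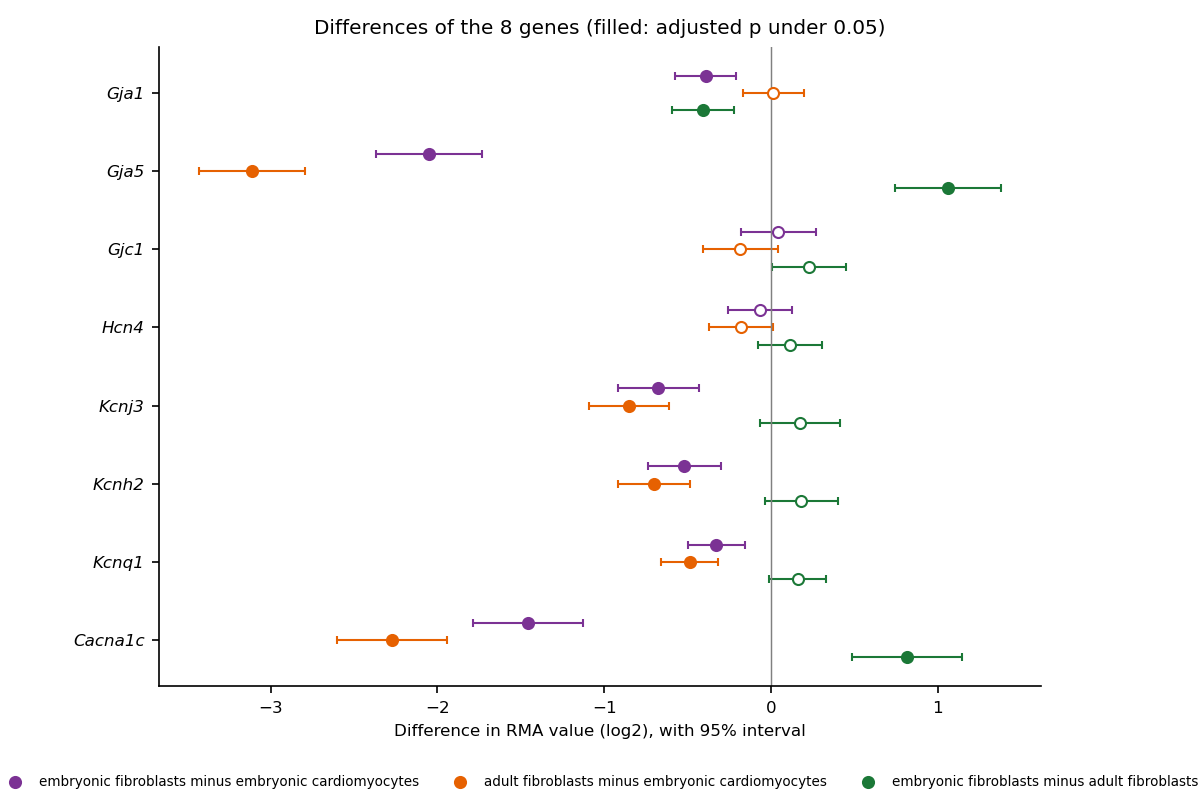
Differences in RMA value (log2) of the 8 genes in the 3 comparisons, with 95% intervals from limma; filled points passed at an adjusted p under 0.05 over all genes. Gja5 and Cacna1c differ most from cardiomyocytes, the potassium channel genes differ by less than 1 log2 unit, and Gja1 alone of the 8 is lower in embryonic than in adult fibroblasts at this threshold.

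Counting arrays that do not overlap gave a similar picture. In embryonic fibroblasts against cardiomyocytes 6 of the 8 genes had groups without overlap, and in adult fibroblasts against cardiomyocytes also 6, Hcn4 being the one that was not called. Between the fibroblast groups there were 4, namely Gja1, Gja5, Kcnq1 and Cacna1c. The shares over all genes were 39.1%, 45.9% and 33.0%.

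The cardiomyocyte markers moved with these differences. All 10 fell in adult fibroblasts, with differences from -5.52 to -3.96 and a median of -4.55, and in embryonic fibroblasts 7 of 10 fell, with a median of -1.27 and a range from -1.86 to -0.30. Between the fibroblast groups all 10 markers were higher in embryonic fibroblasts, by 2.58 to 4.77 with a median of 3.27. Gja5 and Cacna1c were higher there by 1.06 and 0.82. In adult fibroblasts relative to cardiomyocytes the called channel and connexin genes differed by -3.11 to -0.49, all less than the marker that fell least. In embryonic fibroblasts Gja5, with a difference of -2.05, lay outside the range of the markers, and Cacna1c, with -1.46, lay inside it. The marker means in cardiomyocytes were 10.96 (Myh6) to 13.82 (Tnnt2), and those of the called members were 7.83 (Kcnj3) to 10.41 (Gja5). Genes that start lower have less room to fall, so these sizes do not rank members against markers. Among the embryonic fibroblast arrays replicate 2 had the lowest marker mean (11.04, against 11.45 and 11.67). It had the lowest value of the 3 in Gja5, Cacna1c and Kcnh2 but not in the other 5 genes. In every gene 1 of the 3 arrays is lowest, and the share over all genes was not computed. This count is therefore no result about the 8 genes. The part of cardiomyocyte RNA in the differences of the 8 genes was not tested. Of 6 markers of arterial endothelium, another site of Gja5, 3 rose in embryonic fibroblasts relative to cardiomyocytes (Efnb2, Bmx and Hey1) and 0 fell. In adult fibroblasts 1 rose (Sox17) and 1 fell (Bmx). Over all genes 10.3% rose and 11.1% fell in embryonic fibroblasts, and 17.4% rose and 18.2% fell in adult fibroblasts. The 3 embryonic calls ended when single arrays were left out: cardiomyocyte replicate 2 or 3 or embryonic fibroblast replicate 1 or 2 for Efnb2 (adjusted p = 0.05 to 0.0652), cardiomyocyte replicates 1 to 3 or embryonic fibroblast replicate 2 or 3 for Bmx (0.0706 to 0.102), and any of 6 arrays for Hey1 (0.0507 to 0.137). The 6 general endothelial markers all rose in embryonic fibroblasts, but 3 of these calls ended in the same way: Kdr and Tie1 without any of 5 arrays each (adjusted p = 0.0739 to 0.109 and 0.0567 to 0.104) and Pecam1 without cardiomyocyte replicate 2 (0.0515).

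**Figure D3:**
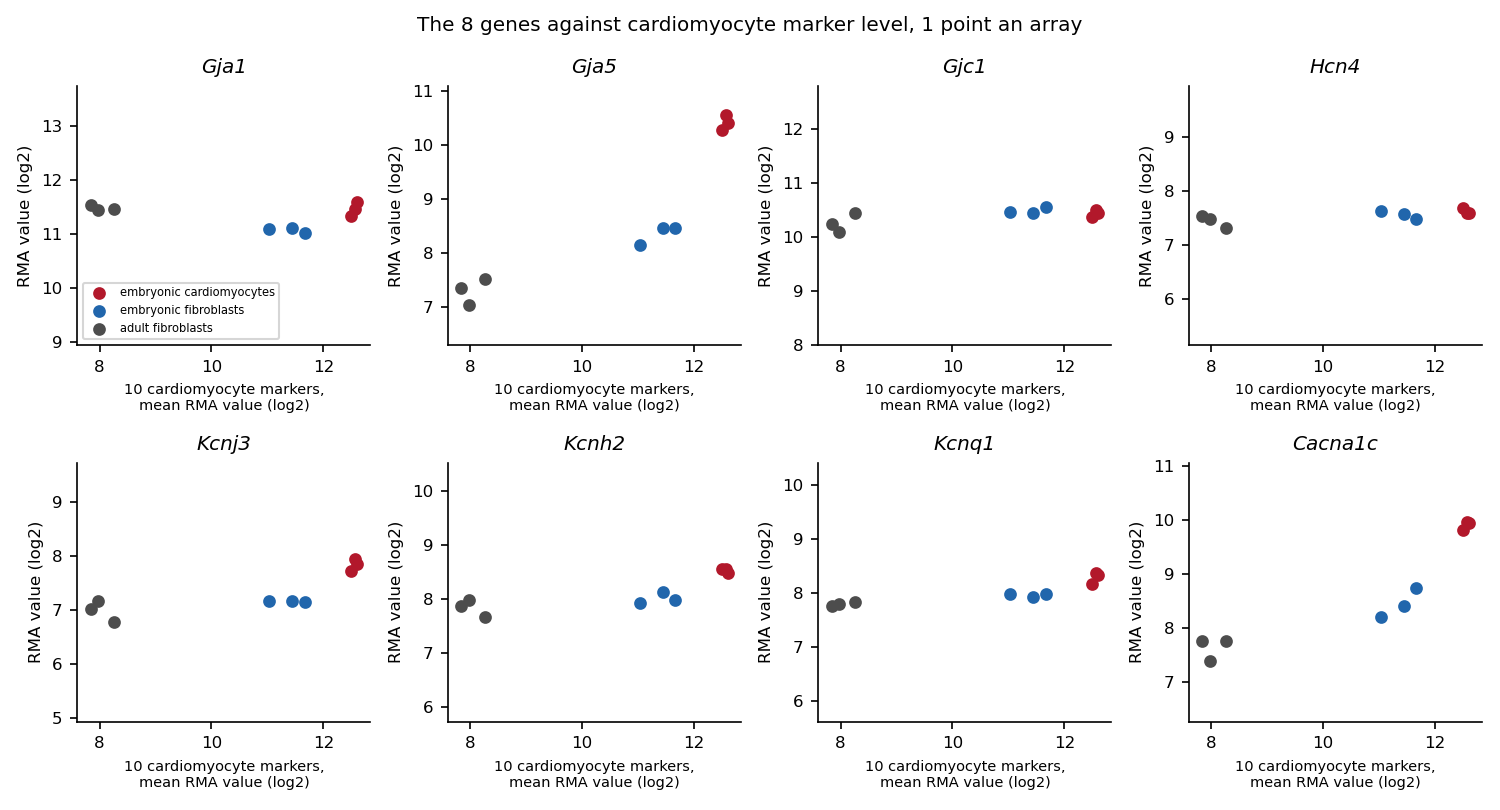
RMA value (log2) of each of the 8 genes on the vertical axis against the mean RMA value of 10 cardiomyocyte markers on the horizontal axis, 1 point an array, coloured by group. The 3 groups form separate clusters at marker means of 12.50 to 12.61, 11.04 to 11.67 and 7.84 to 8.27; Gja5 and Cacna1c are high at the right and low at the left, and Gja1 is as high in the adult fibroblasts at the left as in the cardiomyocytes at the right.

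Other genes of the same systems were taken from lists of the connexin and channel families. Of 57 further connexin, pannexin and channel genes with a probe, out of 69 listed, 7 fell and 2 rose in embryonic fibroblasts relative to cardiomyocytes, 11 fell and 5 rose in adult fibroblasts, and 4 were higher and 4 lower in embryonic than adult fibroblasts. These are 12.3% lower and 3.51% higher in embryonic fibroblasts, beside 11.1% and 10.3% of all genes, and 19.3% lower and 8.77% higher in adult fibroblasts, beside 18.2% and 17.4%. Between the fibroblast groups the shares are 7.02% each way, beside 11.2% and 8.34%. The shares that fell are near those of all genes and are no result about these families. Between the fibroblast groups Kcnj2, Kcna4, Kcnd2 and Cacna1d were the higher ones (1.30, 0.72, 0.43 and 0.53) and Panx1, Kcne4, Scn7a and Scn3a the lower ones (-0.42, -1.04, -4.02 and -0.44). The calls of Kcna4, Kcnd2, Cacna1d and Scn3a ended under leave-outs of single arrays (4, 6, 4 and 2 arrays, each of which gave an adjusted p of 0.0511 to 0.154). Over all 57 the median differences were -0.08, -0.02 and -0.06. These counts were not tested against those of the 8 genes.

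Among the other connexins, pannexins and the junction adaptor gene Tjp1, 16 of 20 listed genes were measured. In embryonic fibroblasts 1 gene rose and 0 fell relative to cardiomyocytes, where 10.3% of all genes rose and 11.1% fell. The gene that rose was Gja4, a connexin gene of endothelium, at 8.36 ± 0.25 (SD, n = 3) against 7.89 ± 0.13 (0.47 ± 0.14, SE, adjusted p = 0.0371). Its call was lost when any of 5 arrays was left out: cardiomyocyte replicate 1 or 2, embryonic fibroblast replicate 1 or 2, or adult replicate 2 (adjusted p = 0.05 to 0.139). In adult fibroblasts Panx1, a pannexin gene, rose by 0.65 relative to cardiomyocytes (adjusted p = 0.00047), and embryonic fibroblasts had less of it than adult ones (-0.42, adjusted p = 0.012). Gja3, a further alpha connexin gene, did not pass (-0.21 in embryonic and -0.20 in adult fibroblasts relative to cardiomyocytes, -0.007 between the fibroblasts). Of the HCN family Hcn2 and Hcn3 were measured besides Hcn4. Neither passed in any comparison, with differences for Hcn2 of -0.11, -0.02 and -0.09 in the same order.

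The partners of the potassium channel members did not all follow them. Kcne1, whose product joins that of Kcnq1 in the slow delayed rectifier, fell 2.23-fold in embryonic fibroblasts (-1.16 ± 0.17, adjusted p = 0.00142) and 2.58-fold in adult fibroblasts (-1.37 ± 0.17, adjusted p = 0.00018). Its RMA values were 8.67, 8.51 and 8.30 in cardiomyocytes, 7.16, 7.20 and 7.63 in embryonic fibroblasts and 6.91, 7.03 and 7.43 in adult fibroblasts, so the fibroblast groups overlapped. Kcne2, another small partner subunit, did not pass (-0.09, -0.10 and 0.01 in the 3 comparisons). Kcnj5, which forms the acetylcholine-gated channel with Kcnj3, was lower in adult fibroblasts than in cardiomyocytes (-0.39 ± 0.09, adjusted p = 0.00638), whereas its difference of -0.20 in embryonic fibroblasts had an adjusted p of 0.144.

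Further potassium channel genes were called in both directions. The largest decrease was in Kcna4, a subunit of the transient outward current, at 8.88 ± 0.17 in cardiomyocytes, 7.29 ± 0.38 in embryonic and 6.57 ± 0.11 in adult fibroblasts (-1.59, adjusted p = 0.000369, and -2.31, adjusted p = 7.44e-06). Kcnd2, another subunit of that current, fell by 0.79 and 1.22. Abcc9, the regulatory subunit of the ATP-sensitive channel, fell 2.1-fold in embryonic and 2.28-fold in adult fibroblasts. Kcnj2, the main inward rectifier that sets the resting potential, was 7.27 ± 0.24 and 7.17 ± 0.20 in the 2 embryonic groups and 5.87 ± 0.08 in adult fibroblasts. It was lower in adult fibroblasts than in cardiomyocytes (-1.40, adjusted p = 3.76e-05) and higher in embryonic than adult fibroblasts (1.30, adjusted p = 0.000185). Kcne4 ran the other way, with 6.85 ± 0.14, 7.54 ± 0.02 and 8.58 ± 0.14 in cardiomyocytes, embryonic and adult fibroblasts, and it was 3.32-fold higher in adult fibroblasts than in cardiomyocytes (adjusted p = 1.26e-06). Kcnk3 fell (-0.34) and Kcnk2 rose (0.36, adjusted p = 0.0493) in adult fibroblasts. Both encode background potassium channels, and the Kcnk2 call ended without any of 6 arrays (adjusted p = 0.0593 to 0.148).

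Of 9 other calcium channel subunit genes 3 fell in embryonic and 4 in adult fibroblasts relative to cardiomyocytes. Over all genes 11.1% and 18.2% fell. Cacna2d2, an auxiliary subunit, fell by 0.61 and 0.86, and Cacna1h, a T-type channel, fell by 0.58 and 0.72. Cacnb2, the beta subunit that carries Cacna1c to the membrane in heart muscle, was lower in adult fibroblasts (-0.34 ± 0.08, adjusted p = 0.00815) and gave -0.16 ± 0.08 in embryonic fibroblasts (adjusted p = 0.231). The third gene called in embryonic fibroblasts was Cacna2d1 (-0.92), a call that ended without cardiomyocyte replicate 2 (adjusted p = 0.0599) or without embryonic fibroblast replicate 2 (adjusted p = 0.0532). The fourth in adult fibroblasts was Cacna1d (-0.43), which any of 5 left-out arrays ended (cardiomyocyte replicates 1 to 3 and adult replicates 1 and 2, adjusted p = 0.0622 to 0.094). Of 8 sodium channel genes measured 0 were called in embryonic fibroblasts against cardiomyocytes, where 10.3% of all genes rose and 11.1% fell. Scn7a, an atypical member of the sodium channel family, stood at 6.80 ± 0.18, 6.68 ± 0.15 and 10.69 ± 0.56 and was 14.9-fold higher in adult fibroblasts than in cardiomyocytes (adjusted p = 2.17e-06). Scn3a also rose there (0.33, adjusted p = 0.0468), a call that ended without any of 6 arrays (adjusted p = 0.0632 to 0.119).

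**Figure D4:**
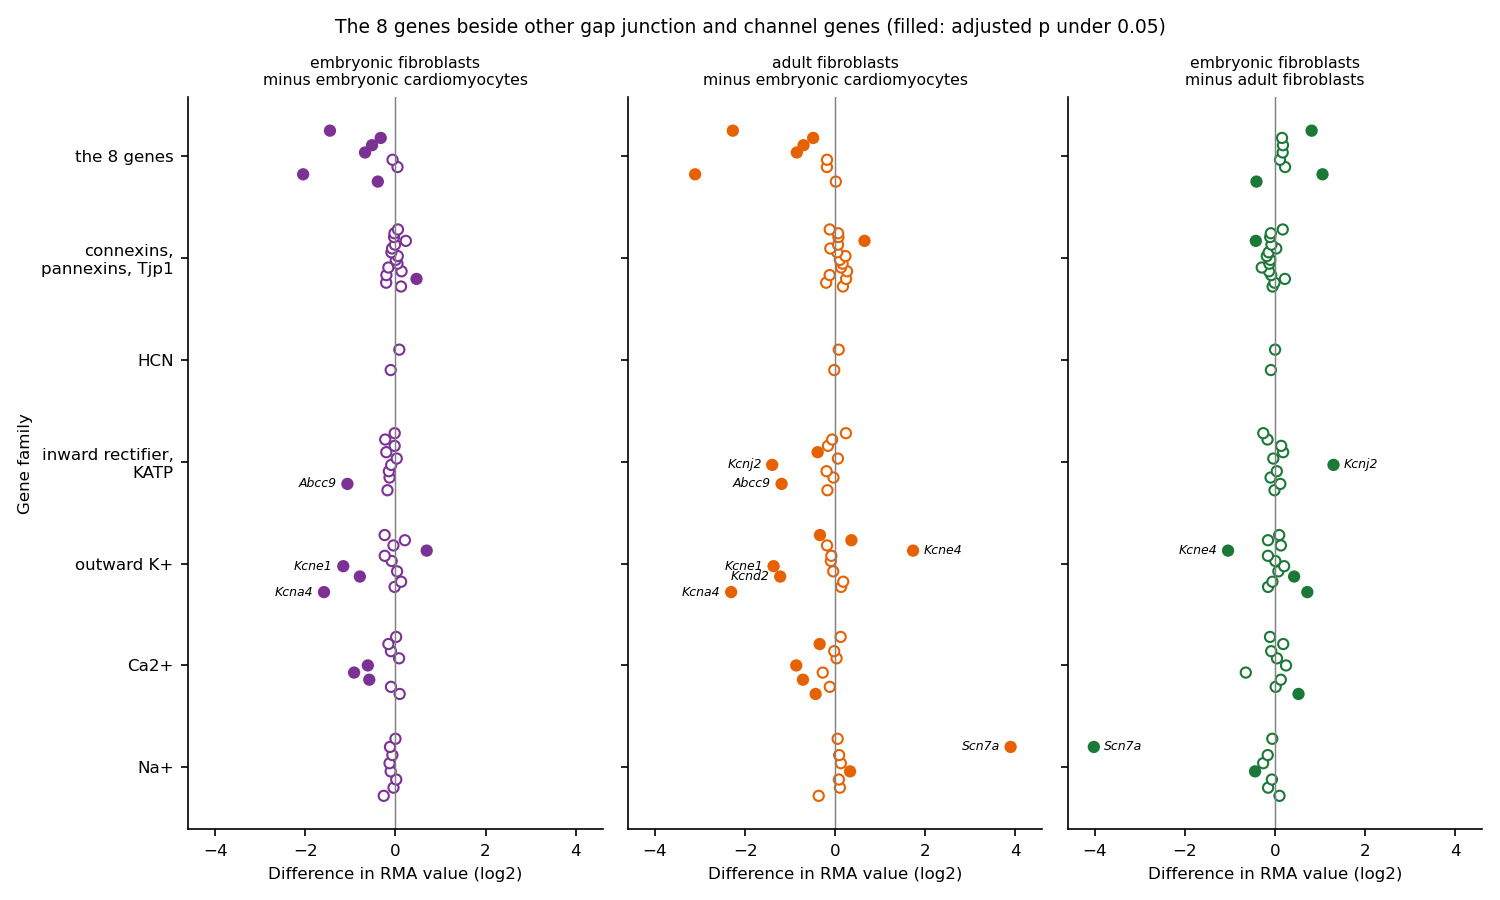
Differences in RMA value (log2) for the 8 genes (top row) and 57 other gap junction and channel genes by family, 1 panel a comparison; filled points passed at an adjusted p under 0.05 and those called with a difference beyond 1 outside the top row are named. Most other connexins lie near 0, while Kcna4, Kcne1 and Abcc9 are lower in both fibroblast groups and Scn7a and Kcne4 are higher in adult fibroblasts.

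Of 12 transcription factors that pattern the conduction system 2 fell in embryonic fibroblasts, Hey2 (-2.39) and Tbx5 (-1.31, adjusted p = 0.000332), where 11.1% of all genes fell. Nkx2-5 was not called in any comparison, with means of 8.30, 8.25 and 8.23 in cardiomyocytes, embryonic and adult fibroblasts. Whether its probe rose above background in any group cannot be read from RMA values. Level values of this probe therefore do not show equal amounts of Nkx2-5 RNA. In adult fibroblasts, where 18.2% of all genes fell and 17.4% rose, Hey2, Tbx5, Gata4 and Irx5 fell relative to cardiomyocytes (-3.65, -2.16, -0.79 and -0.39). Shox2 rose (0.47). That last call was lost after quantile normalization (adjusted p = 0.0526). Between the fibroblast groups Hey2, Tbx5 and Gata4 were higher in embryonic cells (1.26, 0.85 and 0.41) and Tbx3 and Shox2 lower (-0.53 and -0.40). Over all genes 11.2% were higher and 8.34% lower. The calls of Gata4 and Shox2 ended without any of 8 arrays, all but adult replicate 1 for Gata4 and all but adult replicate 2 for Shox2 (adjusted p = 0.0598 to 0.117 and 0.0724 to 0.141). That of Tbx3 ended without embryonic fibroblast replicate 1 or 3 or adult replicate 2 (0.0552 to 0.0861). Fitting only the 2 fibroblast groups ended the calls of Hey2 (adjusted p = 0.0514), Gata4 (0.0999), Shox2 (0.121) and Tbx3 (0.0829).

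Genes with the most similar profile were found by the root mean square distance over the 9 arrays, after each gene was centred on its own mean. Predicted, Rik and unnamed loci were left out of the search and of the counts given here. For Gja5 these were Hba-x, an embryonic globin gene, at 0.18 and Txlnb at 0.19 log2 units, and only these 2 genes lay within 0.2 of it. For Cacna1c they were Pgm1, a glycogen metabolism enzyme, at 0.11 and Cmc2 at 0.12, among 45 genes within 0.2. Kcnj3 was nearest to Fbxo40 (0.05) and Rwdd3 (0.07), and Kcnh2 to Ppargc1b (0.05) and Fahd2a (0.07), with 547 and 860 genes within 0.2. Kcnq1 was nearest to Tbc1d5 and Armh3 (0.05 each) and Gja1 to Lrrfip2 (0.06) and Zp3r (0.07). These last genes vary so little that 2685 and 3286 others lay within the same distance, so their nearest genes carry little information.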

How the data were processed

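The log2 values are those the authors deposited, made with RMA (version unknown) per the submitters' processing notes. The log base is not stated and was read as log2 from the range of the values (2.70 to 14.20). The sources used here name no genome build or annotation. Probes with a single gene symbol in the platform annotation (21776 of 28767; 1618 had several, 5373 none) were used, with the probe of highest mean for each gene. The 8 genes have 1 such probe each. All 9 arrays entered 1 linear model with a mean per group (limma 3.58.1, R 4.3.3, moderated by eBayes), with two-sided tests and Benjamini-Hochberg adjustment over 19933 genes in each comparison. The fit was tested on simulated data. No filter on dim genes was set. Figures were drawn with matplotlib 3.10.9. The labels call the arrays biological replicates. The 8 genes, the lists and the tests were chosen with earlier results of these data known. Named are the 8 genes, fixed partners (Kcnj5, Kcne1, Kcne2, Hcn2, Cacnb2, Gja4 and Gja3), called list genes with the largest differences, list genes covered by a small count, and the 2 nearest profiles of each called member. Alternatives were a replicate block, median centring, quantile normalization, a filter at the 30th percentile, the mean of all probes, only the groups compared, array weights, a variance trend and leaving out each array.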

Additional observations from a re-analysis of the deposited data

How the results depend on the processing

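Each comparison of the 8 genes was repeated under 17 alternatives. The number of members called ranged from 5 to 6 for embryonic fibroblasts against cardiomyocytes, from 5 to 6 for adult fibroblasts against cardiomyocytes and from 3 to 4 between the fibroblast groups. Several alternatives cannot change the difference of a member. These are the replicate block, the 30th percentile filter, the mean of all probes and the variance trend. Fitting only the groups compared and leaving out an array of the third group cannot change it either. Under these only the side of the threshold could change. Of the 136 member results in each comparison 134, 133 and 135 kept their direction and side of the threshold, in that order. The exceptions were Kcnq1 and Gjc1, given with their values above, and Gja1 in adult fibroblasts against cardiomyocytes: leaving out single arrays moved its difference between -0.049 and 0.076. Correlations of deviations were -0.20 to 0.20 for same-numbered arrays and -0.22 to 0.19 for arrays of other numbers. No pairing by replicate number was seen, but with 3 arrays a group this check cannot exclude one. With the replicate block 6, 5 and 3 of the 8 genes were called, and the calls of Gja4 between the embryonic groups (adjusted p = 0.0694), Kcnk2 (0.0778) and Scn3a (0.0703) in adult fibroblasts against cardiomyocytes, and Gata4 (0.0535), Kcnd2 (0.0775) and Wt1 (0.0652) between the fibroblast groups were lost. Array weights raised the genes called between the embryonic groups from 4266 to 6465. Of the other channel genes called, 7 of 9, 13 of 16 and 4 of 8 kept their call under all alternatives. Differences that did not pass changed sign for Kcne2 between the fibroblast groups (-0.008 with centred arrays), for Gja3 there (0.008 with array weights) and for Tyrobp there (-0.176 with array weights), and, when single arrays were left out, for Kcnj2 (-0.212 to 0.045) and Scn3a (-0.191 to 0.017) in embryonic fibroblasts against cardiomyocytes, Hcn2 in adult fibroblasts against cardiomyocytes (-0.063 to 0.024), Gja3 (-0.062 to 0.071) and Kcne2 (-0.072 to 0.088) between the fibroblast groups, and the markers Hey1 (-0.080 to 0.291), Kdr (-0.163 to 0.478) and Wt1 (-0.153 to 0.024) in adult fibroblasts against cardiomyocytes and Cdh5 (-0.033 to 0.766), Pecam1 (-0.033 to 0.886), Csf1r (-0.306 to 0.009) and Tyrobp (-0.344 to 0.468) between the fibroblast groups. The number of arrays limits precision, and RMA values compress differences of dim genes.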

Other observations

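Markers of further cell types were measured on the same arrays. Over all genes 10.3% rose and 11.1% fell in embryonic fibroblasts relative to cardiomyocytes, and 17.4% rose and 18.2% fell in adult fibroblasts. Of 7 macrophage markers 5 rose in embryonic and 6 in adult fibroblasts relative to cardiomyocytes, with array means of 7.64 to 7.81 in cardiomyocytes, 8.39 to 8.83 in embryonic and 8.85 to 9.66 in adult fibroblasts. Of these calls Adgre1 in embryonic fibroblasts ended without any of 4 arrays (adjusted p = 0.0592 to 0.0753), and Tyrobp ended without any of 6 arrays in embryonic (0.051 to 0.117) and any of 4 in adult fibroblasts (0.0503 to 0.0818), where it also ended when only these 2 groups were fitted (0.0558). Of 7 smooth muscle and pericyte markers 2 rose (Rgs5 and Pdgfrb) and 1 fell (Cnn1) in embryonic fibroblasts. In adult fibroblasts 3 rose (Rgs5 by 3.70, Pdgfrb and Myh11) and 2 fell (Cnn1 and Acta2, differences of -3.99 and -3.28). Cnn1 and Acta2 had their highest group means in cardiomyocytes (11.84 and 12.02). The call of Myh11 in adult fibroblasts ended without any of 3 arrays (adjusted p = 0.0503 to 0.0518). Of 6 epicardial and mesothelial markers 2 rose in embryonic fibroblasts, and 1 rose and 1 fell in adult fibroblasts. The adult counts are near the shares of all genes and are no result about these markers. Of 4 measured markers of Schwann cells and glia 0 passed by limma in any comparison, with array means of 6.99 to 7.18 over all arrays. The part of these cell types in the differences of the channel genes was not tested.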
